A study of Glycine max with 6 samples.

Results

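Of the 66195 probes on the soybean array, which stand for 66184 gene IDs, 200 were selected because their signal was nearly the same in 3 drought-stressed plants and differed most between 3 well-watered plants. A probe entered the selection if the standard deviation (SD) of its log2 signal over the drought-stressed plants was under 0.3, which 52942 probes met. These were ranked by their SD over the well-watered plants, and the first 200, each for a gene ID of its own, are called members here. The values that chose the members are the ones described here, so the spreads, patterns and levels of the members are a description and not a test. RNA was from the fourth trifoliate leaf of *Glycine max* cv. Williams 82, with 1 array per plant. The samples are labelled with the V6 vegetative stage, at which watering was stopped (28 days old in one protocol of the labels and 35 days in another), but leaves were taken 6 days later, when by the study's methods the plants had begun to bloom. Drought-stressed plants 1, 2 and 4 had no water for 6 days, until the soil held 5% moisture, and well-watered plants 14, 15 and 16 were watered throughout. All plants shared the cultivar, the greenhouse and the labelled stage. The labels give 3 plants per pot but not which plants shared one, and of 4 biological replicates per treatment 3 were put on arrays.

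Leaves of well-watered plants of 1 cultivar can differ in transcript level through small differences in leaf age, light, time of harvest, wounding or growth. Genes that react quickly to such cues can vary between plants. Whether such differences were present between these plants was not tested. Water deficit closes stomata, raises abscisic acid (ABA) and slows growth, and many genes are switched to a new level as a result. In dry leaves, a gene that varies between watered plants can in principle lie low, high or between the watered levels. Each of these positions occurred among the members, and whether drought set them was not tested.

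All values are log2 signals on the deposited scale, on which 0 is a probe's median over the 6 plants, with the median of each array subtracted. The array medians before this step were -0.0069, -0.0042 and -0.029 in drought-stressed plants 1, 2 and 4, and 0.13, 0.029 and -0.097 in well-watered plants 14, 15 and 16. The scale holds differences between plants and no absolute level. Whether a member sat near the array's background in dry leaves, where its spread would be small, was not tested. Nor could the leaf identity of the RNA be checked, since the levels of marker genes are not in the values. Of the 200 members, 10 are listed in the annotation rows used here and 8 of them have a description, so most members are given by gene ID only.

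The SD of the members ran from 0.018 to 0.30 in drought-stressed plants (median 0.19) and from 0.88 to 1.89 in well-watered plants (median 1.00). Between the highest and the lowest well-watered plant a member differed by 2.98-fold to 11.8-fold, with a median of 3.81-fold. Over all 66195 probes the median SD was 0.18 in drought-stressed plants and 0.22 in well-watered plants. A well-watered SD at least as large as that of the last member was held by 517 probes, of which 317 were at or over the drought limit and were therefore left out. The opposite pattern, with an SD under 0.3 in well-watered plants and at least 0.88 in drought-stressed plants, was held by 106 probes. Fewer probes reached that SD in drought-stressed plants at any well-watered SD, 273 against the 517.

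**Figure D1:**
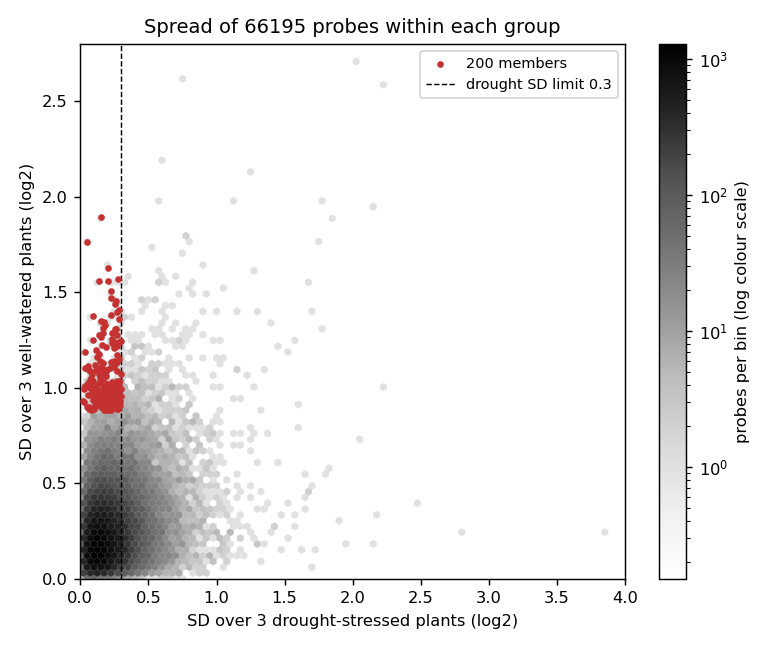
SD of the log2 signal over 3 drought-stressed plants (x axis) and 3 well-watered plants (y axis) for all 66195 probes, as counts per bin on a log colour scale, with the 200 members as red points and the drought limit of 0.3 as a dashed line. The members lie left of the line at well-watered SDs of 0.88 to 1.89.

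At the lower end of the ranking Glyma19g32940 was the last member, with -1.12, -1.56 and -1.42 in drought-stressed plants 1, 2 and 4 and 1.47, 1.10 and 2.78 in well-watered plants 14, 15 and 16. The next probe, Glyma13g41100, was left out at 0.17, -0.16 and -0.22 in drought-stressed plants against 0.071, 0.54 and -1.17 in well-watered plants. Their well-watered SDs were both 0.882, so nothing sets the members apart from the probes that follow them. At the drought limit, the member Glyma03g22610 had a drought SD of 0.298, with 0.26, -0.20 and -0.30 in drought-stressed plants and 0.068, 0.62 and -1.31 in well-watered plants. Glyma16g27070 was just outside, at 0.3001, with 0.36, -0.22 and -0.067 in drought-stressed plants against 0.0044, -1.75 and 0.19 in well-watered plants.

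A well-watered plant was said to stand apart when its gap to the next plant was at least 2 times the gap between the other two. This held for 137 of the 200 members, and the other 63 were graded, with the middle plant between both ends. Plant 16 stood apart in 85 members (42.5%), against 26.2% of all probes. Plant 15 stood apart in 31 members (15.5%), against 16.4% of all probes, and plant 14 in 21 (10.5%), against 20.9%. Plant 16 was the odd plant most often under all other settings that kept every well-watered plant, in 60 to 100 members. With a well-watered plant left out this could not be counted. The gap of the odd plant to the next had a median between 2.72-fold and 2.98-fold in each of the 6 patterns of plant and direction.

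The order of the 3 well-watered plants was uneven among the members. Plant 14 lay between the other plants in 123 members (61.5%), against 34.3% of all probes. The orders with plants 16 and 15 at opposite ends and plant 14 between them were thus the commonest, with plant 16 highest and plant 15 lowest in 71 members and plant 15 highest and plant 16 lowest in 52. Over all probes these orders made up 16.4% and 17.9%. Plants 15 and 16 were thus at opposite ends in most members, although in the 85 members where plant 16 stood apart it was also far from plant 14. In alternatives added after the data were seen, plant 14 lay between the others in 107 to 146 of 200 members. On uncentred values the commoner order turned round, with plant 16 highest and plant 15 lowest in 50 members and plant 15 highest and plant 16 lowest in 72. After quantile normalization these orders had 53 and 54 members, and without drought-stressed plant 1 they had 67 and 79.

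Plant 16 stood apart as the highest plant in 48 members and as the lowest in 37. This balance depends on how the arrays are scaled: without centring of the arrays it was 23 high and 61 low, and with quantile normalization 25 high and 43 low. The 200 probes picked under those scalings were partly others, with 154 and 147 of the members shared. Of the 200 members themselves, 174 kept their pattern on the uncentred values and 184 after quantile normalization.

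**Figure D2:**
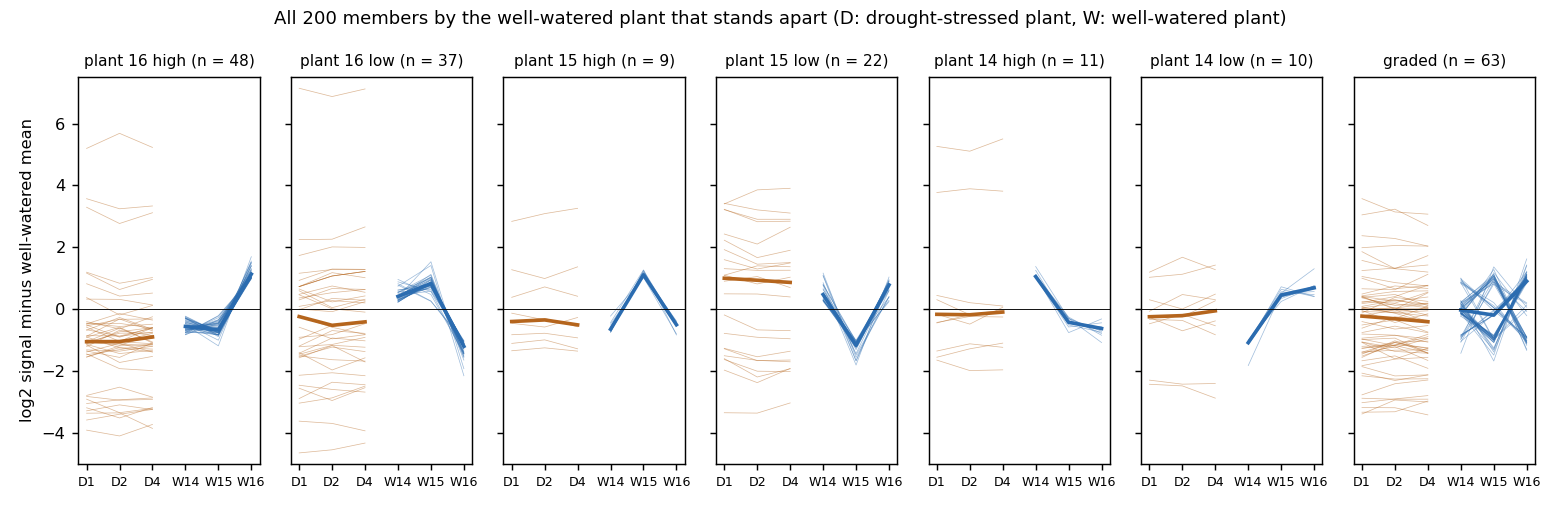
Log2 signal of all 200 members minus the mean of the 3 well-watered plants, in drought-stressed plants 1, 2 and 4 (D, brown) and well-watered plants 14, 15 and 16 (W, blue), in a panel for each pattern. Thin lines join the values of 1 probe within a group and thick lines the medians over the panel, and the drought lines run nearly flat in every panel because the rule chose them so.

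More members had a drought level at or beyond the low end of the well-watered range than at or beyond the high end. The mean of the 3 drought-stressed plants lay below the whole range of the well-watered plants in 80 members and in the lowest of 3 equal parts of that range in 34, together 114 (57.0%), against 43.0% of all probes. It lay above the range in 35 and in the highest part in 25, together 60 (30.0%), against 39.3% of all probes. In the remaining 26 members (13.0%) it lay in the middle part, against 17.8% of all probes. Under the other settings 94 to 129 members were at the low end and 45 to 71 at the high end, so the low end was the larger in each of them. With a per-plant criterion, all 3 drought-stressed plants lay below all 3 well-watered plants in 69 members (34.5%), against 16.3% of all probes, and above them in 29 (14.5%), against 15.8%.

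The drought level is given here by pattern. Where 1 plant was high, the other pair by construction lay in the lowest of the 3 parts of the range, so a drought level equal to that pair counts as the low end, and the reverse holds where 1 plant was low. Where plant 16 was high, 40 of 48 members (83.3%) were at or beyond the low end, against 49.9% of all probes of this pattern. The drought mean was within 0.5 of the mean of plants 14 and 15 in 22 of the 48, with a median difference of -0.34, and plant 16 was the well-watered plant farthest from the drought mean in 41. Where plant 16 was low, 19 of 37 (51.4%) were at or beyond the low end and 16 (43.2%) at or beyond the high end, against 33.9% and 42.2% of all probes of this pattern, and plant 16 was nearest to the drought level in 19 and farthest in 18. Where plant 15 was low, 13 of 22 (59.1%) were at or beyond the high end, against 48.0% of all such probes. With plant 15 high, 6 of 9 (66.7%) were at or beyond the low end, against 52.2%. Plant 14 high gave 6 of 11 (54.5%) at the low end, against 49.2%, and plant 14 low gave 4 of 10 at the high end, against 49.1% of all such probes. Differences between these patterns were not tested, since the values chose both the patterns and the members.

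**Figure D3:**
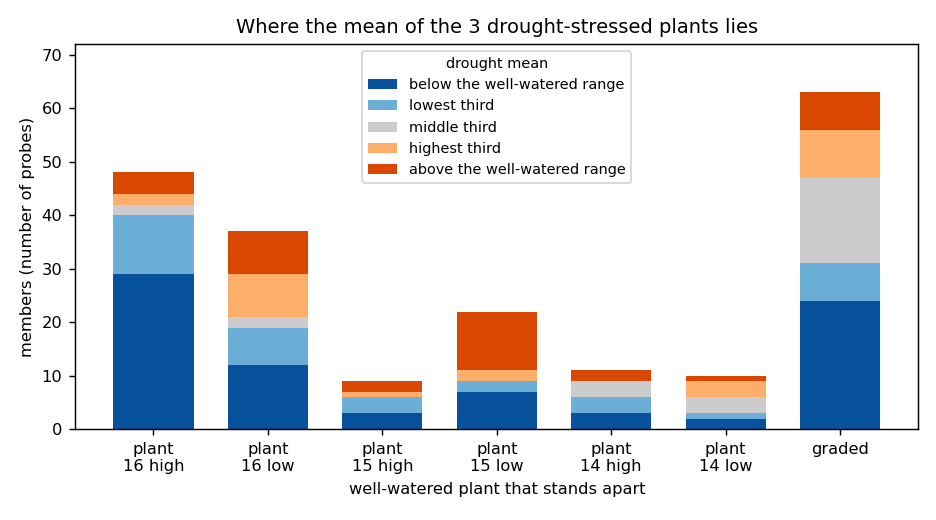
Number of members in each well-watered pattern (bars), divided by where the mean of the 3 drought-stressed plants lies relative to the range of the 3 well-watered plants. The bar for plant 16 high holds 29 of its 48 members below the range, and the bar for plant 15 low holds 11 of its 22 members above it.

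In limma, a fit of drought-stressed against well-watered leaves to all probes, 46 members were called lower and 22 higher in drought-stressed leaves, against 4.83% and 4.56% of all probes (9.39% in either direction). A call needed an adjusted p under 0.05 together with a change of 2-fold or more. The rule used the spread that sets the error of this test, so nothing is read from these counts. The t-test of the methods called 2 members lower and 4 higher. The count called lower also fell to 30 without drought-stressed plant 2 or plant 4.

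Plant 16 was the high plant in Glyma06g13340, at -1.55, -1.36 and -1.21 in drought-stressed plants 1, 2 and 4 and 1.30, 1.21 and 3.58 in well-watered plants 14, 15 and 16. In plant 16 its signal was 4.86-fold that of the next plant, and all dry leaves lay below all watered leaves. Glyma17g32100 had -0.39, -0.024 and 0.025 in drought-stressed plants, against 0.65, -0.025 and 2.86 in well-watered plants. Here the dry leaves overlapped with plant 15, and only plant 16 was far above. Glyma08g22230 overlapped with plant 15 as well, with -0.29, -0.25 and 0.023 in drought-stressed plants and 0.12, -0.023 and 2.32 in well-watered plants. In Glyma06g02800 both plant 14 and plant 15 lay among the dry leaves, with 0.045, -0.41 and 0.026 in drought-stressed plants and -0.13, -0.12 and 2.14 in well-watered plants. In these 3 genes plant 16 was 4.60-fold to 4.81-fold above the next plant, and plant 15 lay among the dry leaves.

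Plant 16 was the low plant in Glyma18g00830, the member with the largest well-watered SD. Its log2 signal was 0.15, 0.43 and 0.41 in drought-stressed plants 1, 2 and 4 and -0.84, -0.17 and -3.74 in well-watered plants 14, 15 and 16. All dry leaves lay above all watered leaves, while plant 15 exceeded plant 16 by 11.8-fold. Glyma12g25730, the next in rank, had the reverse drought level, at -0.096, -0.016 and -0.11 in drought-stressed plants against 2.43, 3.57 and 0.12 in well-watered plants. Plant 16 was there within 0.3 of every dry leaf, whereas plants 14 and 15 were far above. Glyma20g01110 and Glyma06g05300 followed the same form. Glyma20g01110 had -0.21, 0.090 and -0.057 in drought-stressed plants and 1.85, 2.32 and -0.22 in well-watered plants. Glyma06g05300 had -0.43, 0.063 and -0.029 in drought-stressed plants and 1.55, 2.09 and -0.65 in well-watered plants. In both, plant 16 lay below the dry leaves and the other watered plants far above them. In Glyma03g40730 plant 16 was also the lowest watered plant, at -0.98, -0.81 and -0.42 in drought-stressed plants and 2.45, 3.19 and 0.55 in well-watered plants, but it stayed above all dry leaves. Glyma17g14670 was low in plant 16 alone, at -0.13, 0.32 and 0.16 in drought-stressed plants and -0.32, 0.18 and -2.42 in well-watered plants, and there the dry leaves overlapped with plant 15 and were near plant 14.

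Plant 15 was the low plant, with dry leaves above every watered leaf, in 5 of the first 20 members. Glyma12g16250 had 1.24, 1.69 and 1.74 in drought-stressed plants 1, 2 and 4, against -1.40, -3.97 and -1.13 in well-watered plants 14, 15 and 16. Glyma20g28890 had 1.22, 0.82 and 0.83 in drought-stressed plants, against -0.94, -3.69 and -1.41 in well-watered plants. The gap of plant 15 to the next plant was 5.97-fold and 4.85-fold. Glyma10g38910 had 1.17, 0.86 and 0.86 in drought-stressed plants, against -0.96, -3.53 and -1.65 in well-watered plants. In Glyma12g31030 the values were 0.71, 0.24 and 0.29 in drought-stressed plants and -0.36, -2.88 and -0.41 in well-watered plants. In Glyma08g42500 they were 0.75, 0.19 and 0.42 in drought-stressed plants and -0.32, -3.04 and -1.08 in well-watered plants. In all 5 the groups did not overlap, and the lowest watered leaf was that of plant 15. Leaving out plant 15 lowered the log2 difference of Glyma08g42500 to 1.15, against 1.93 with all plants.

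Plant 15 was the high plant in Glyma17g36920, with -0.25, -0.16 and -0.26 in drought-stressed plants 1, 2 and 4 and 0.66, 2.36 and 0.26 in well-watered plants 14, 15 and 16. Glyma15g02260 had 0.10, 0.20 and -0.068 in drought-stressed plants and -0.25, 1.76 and 0.0011 in well-watered plants. Glyma01g05450 had -0.30, -0.19 and -0.48 in drought-stressed plants and 0.061, 2.02 and 0.33 in well-watered plants. The dry leaves overlapped with the low pair of watered plants in Glyma15g02260, and lay below every watered leaf in Glyma17g36920 and Glyma01g05450.

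Plant 14 was the low plant in Glyma20g17170, with -0.044, 0.055 and 0.35 in drought-stressed plants and -2.90, -0.55 and 0.23 in well-watered plants. Plants 14 and 15 were both below the dry leaves there, and plant 16 was within their range. Glyma19g03420 had -0.15, 0.16 and -0.21 in drought-stressed plants and -0.82, 0.72 and 1.08 in well-watered plants, with dry leaves between plant 14 and the other pair. Glyma02g45170 had -0.64, -0.77 and -0.75 in drought-stressed plants and 0.52, 2.38 and 2.07 in well-watered plants, so that even plant 14 was above all dry leaves. Plant 14 was the high plant in Glyma02g13400, with -0.40, -0.13 and 0.054 in drought-stressed plants and 2.53, 0.85 and 0.072 in well-watered plants. Glyma08g39140 had -0.37, -0.14 and -0.25 in drought-stressed plants and 2.24, 0.47 and 0.24 in well-watered plants. Glyma17g21210 had 0.0071, 0.0039 and 0.14 in drought-stressed plants and 1.27, -0.081 and -0.67 in well-watered plants. Dry leaves lay below all watered leaves in Glyma08g39140, and between plants 14 and 15 in Glyma17g21210. In Glyma02g13400 they lay below all watered leaves only narrowly, at 0.054 in drought-stressed plant 4 against 0.072 in plant 16. Before the arrays were centred these 2 values were in the reverse order.

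Graded members among the first 20 had no single odd plant. Glyma10g34460 had -1.10, -1.09 and -0.74 in drought-stressed plants 1, 2 and 4, against 2.09, 0.74 and 3.85 in well-watered plants 14, 15 and 16, and no dry leaf reached any watered leaf. Glyma17g32720 had the opposite drought level, at 1.01, 1.20 and 0.67 in drought-stressed plants against -3.46, -0.67 and -1.97 in well-watered plants. Glyma08g27570 had -0.072, 0.19 and 0.11 in drought-stressed plants and -0.29, -2.24 and 0.84 in well-watered plants, with every dry leaf between plants 14 and 16. Glyma04g03260 had -0.035, 0.046 and 0.14 in drought-stressed plants and -1.39, -2.61 and 0.14 in well-watered plants, so the dry leaves were near or at the level of plant 16.

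**Figure D4:**
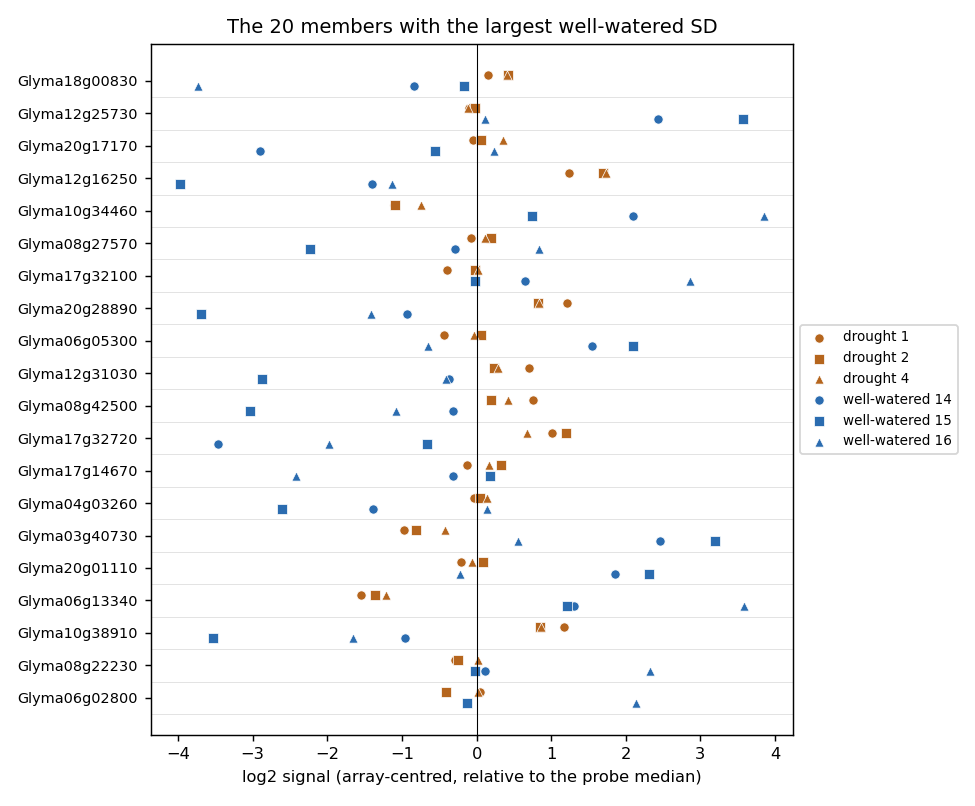
Log2 signal (x axis) of the 20 members with the largest well-watered SD, with drought-stressed plants 1, 2 and 4 in brown above well-watered plants 14, 15 and 16 in blue in each row. The brown points of a row lie close together, while the blue points of the first row run down to -3.74 in plant 16.

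The largest differences between the group means among the members were those of Glyma05g01300, upward, and Glyma13g37760, downward, and Glyma05g01300 was singled out after its value was seen. Glyma05g01300 had 3.16, 2.89 and 3.14 in drought-stressed plants 1, 2 and 4, against -3.02, -3.51 and -5.41 in well-watered plants 14, 15 and 16, a log2 difference of 7.04. Glyma13g37760 had -1.70, -1.60 and -1.38 in drought-stressed plants, against 3.34, 3.99 and 1.51 in well-watered plants, a log2 difference of -4.51. In both genes plant 16 was the lowest watered plant, which put it closest to dry leaves in Glyma13g37760 and farthest from them in Glyma05g01300.

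The 8 members with a description were named for that reason. Glyma10g12130 was also in the study's list of hormone genes, chosen by a change of at least 2-fold in drought-stressed V6 leaves. Its naming was therefore not free of its values. Glyma01g29630 is described as highly similar to *Arabidopsis* *FAD8*, a plastid omega-3 fatty acid desaturase that makes trienoic fatty acids of membrane lipids. Its signal was -0.036, -0.42 and -0.40 in drought-stressed plants 1, 2 and 4 and 1.56, 0.014 and 2.16 in well-watered plants 14, 15 and 16. Plants 14 and 16 were well above the dry leaves, and plant 15, the odd plant here, was just above them. Glyma01g40090 matches *Arabidopsis* *BT4*, which encodes a protein with BTB and TAZ domains, a type of adaptor that binds other proteins. It had -0.47, -0.81 and -0.78 in drought-stressed plants, against 2.21, 0.76 and 0.57 in well-watered plants, with plant 14 as the high plant. Glyma01g42440 matches *Arabidopsis* *UER1* (NRS/ER), an enzyme of the synthesis of nucleotide-linked rhamnose, a sugar of pectin and of flavonoid glycosides. It was the only one of the 8 with all dry leaves above all watered leaves, at 0.58, 0.31 and 0.20 in drought-stressed plants and -1.06, -1.85 and -0.075 in well-watered plants.

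Glyma01g27720 is described as a MYB family transcription factor gene, a class of DNA-binding regulators. It had -0.44, -0.011 and -0.42 in drought-stressed plants and 0.85, 2.08 and 0.11 in well-watered plants, and was graded. Glyma10g12130 is described as a gene of the 2OG-Fe(II) oxygenase family, to which gibberellin oxidases belong, and was among the hormone genes that the study chose on these samples. It had -1.38, -1.18 and -1.34 in drought-stressed plants, against 1.68, 1.16 and 2.89 in well-watered plants. Dry leaves were far below watered leaves in this gene, and plant 16 was the highest. Glyma01g31900, which matches a gene described as similar to a methyltransferase, had -0.10, -0.19 and 0.14 in drought-stressed plants and 0.22, 0.68 and -1.21 in well-watered plants, and was low in plant 16. For the last 2 the description names no function, although it gives a nucleic acid-binding (OB-fold) domain for the match of Glyma01g22580. Glyma01g39120 had -1.21, -1.54 and -1.20 in drought-stressed plants against 1.52, 1.19 and 3.22 in well-watered plants. Glyma01g22580 had -0.023, -0.077 and 0.28 in drought-stressed plants and -0.10, -1.56 and 0.85 in well-watered plants. The first of these was high in plant 16 and low in dry leaves, and the other was graded with dry leaves inside the range.

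By their gene IDs, 198 members lie on the 20 numbered chromosomes and 2 on scaffolds. Chromosome 12 held 16 members, or 5.53 per 1000 genes on the array, and chromosome 9 held 3, or 0.892 per 1000. The other chromosomes lay between 1.94 and 4.03 per 1000. Part of the count on chromosome 12 is uncertain, because Glyma12g27050, Glyma01g34170 and Glyma16g17810 had the same values on all 6 arrays and cannot be told apart. Their shared values were -0.087, 0.26 and 0.40 in drought-stressed plants 1, 2 and 4 and -0.59, 0.065 and -1.92 in well-watered plants 14, 15 and 16.

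Some members were neighbours in the genome. Within 5 places on the array's ordered gene IDs there were 4 pairs, against 9 pairs among the 200 probes chosen by the same rule with the groups exchanged and 3 pairs among the 200 probes that follow the members in rank. Glyma13g37750 and Glyma13g37760 on chromosome 13 adjoin each other and had the same form. Glyma13g37750 had -0.51, -0.90 and -0.49 in drought-stressed plants and 2.47, 3.08 and 0.61 in well-watered plants, so that plant 16 was the lowest watered plant in both genes. Glyma13g37740 and Glyma13g37770, which flank the pair, had well-watered SDs of 0.18 and 0.17. Near them, Glyma13g37730 was also lowest in plant 16, with 0.12, -0.089 and 0.018 in drought-stressed plants and -0.12, 0.067 and -1.49 in well-watered plants, and its well-watered SD of 0.851 was just short of the selection. Glyma06g13340 and Glyma06g13360 on chromosome 6 were both highest in plant 16. The dry leaves of Glyma06g13360, at -0.12, 0.21 and -0.0024, lay inside its watered range of -0.48, 0.0025 and 1.53 in plants 14, 15 and 16, unlike those of Glyma06g13340. Glyma06g13350, between these genes, had a well-watered SD of 0.076.

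The pairs on chromosomes 12 and 14 did not share a form. Glyma12g15520 had -0.049, -0.023 and 0.12 in drought-stressed plants and 0.85, -0.0019 and -1.02 in well-watered plants. Its neighbour Glyma12g15530 had -0.14, -0.084 and -0.074 in drought-stressed plants and 1.02, 2.52 and 0.19 in well-watered plants, so plant 15 was highest in this gene and in the middle in Glyma12g15520. Glyma14g37220 had -0.098, -0.18 and 0.23 in drought-stressed plants and 1.07, 0.076 and -0.76 in well-watered plants. Glyma14g37250 had -0.43, -0.052 and 0.086 in drought-stressed plants and 0.11, -0.15 and 2.08 in well-watered plants. Plant 16 was thus the lowest watered plant in Glyma14g37220 and the highest in Glyma14g37250.

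**Figure D5:**
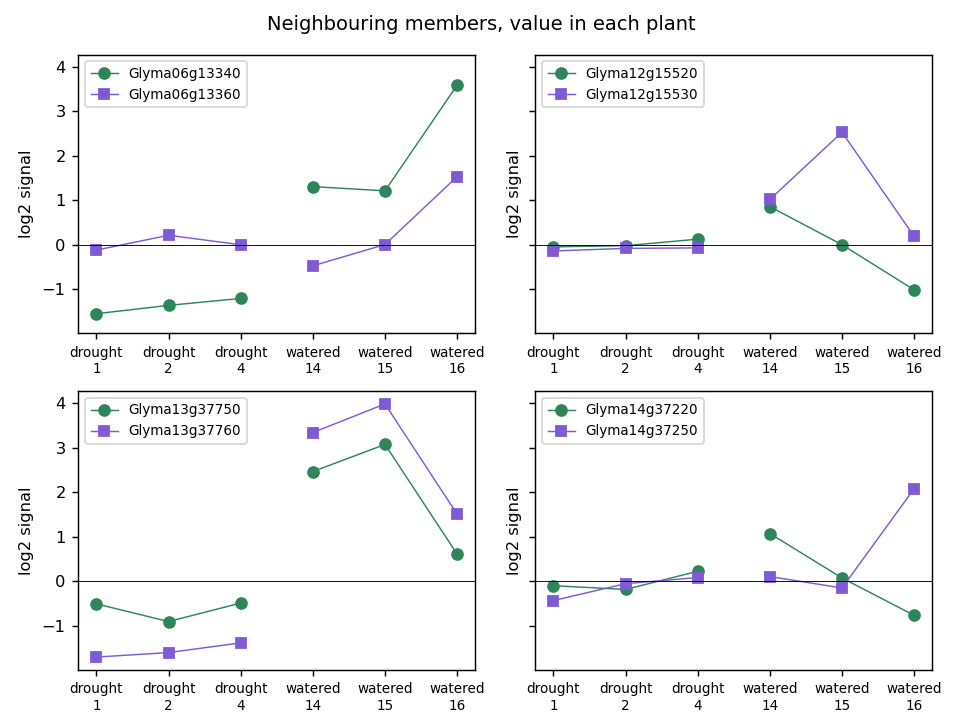
Log2 signal (y axis) in drought-stressed plants 1, 2 and 4 and well-watered plants 14, 15 and 16 for the 4 pairs of neighbouring members, with lines joining the values of 1 gene within a group. The genes of the chromosome 13 pair are both lowest in plant 16 among watered plants, and those of the chromosome 14 pair differ most in plant 16.

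Probes outside the selection give the setting of these values. Among 3250 other probes whose mean was at least 2-fold lower in drought-stressed leaves, the median deviation from the well-watered mean was 0.18 in plant 16, -0.032 in plant 15 and -0.13 in plant 14. Among 3084 other probes at least 2-fold higher in drought-stressed leaves the medians were 0.079, -0.012 and -0.051 in the same plants. Plant 16 thus had the highest median in both sets. Over all 65995 other probes the medians were -0.0088 in plant 16, 0.0033 in plant 15 and -0.0054 in plant 14. Centring each array on its median keeps these small, so nothing is read from their order. The part of plant 16 in the patterns of the members was not tested.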

How the data were processed

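RNA of 3 drought-stressed and 3 well-watered leaves labelled V6 was measured on 66 K Affymetrix soybean arrays. To obtain the deposited log2 values, the authors summarised probes to genes (RMA, Affymetrix Expression Console, no normalization at that step) and scaled each array to its 75th percentile in GeneSpring. In these values each probe is centred on its median across arrays. The authors' deposited comparison (fold change, p-value and corrected p-value) was not used beyond its gene names. Each array was centred on its median, and members were selected as described. Groups came from the sample labels. The groups were compared with limma (version 3.58.1, R version 4.3.3; lmFit, eBayes) on all 66195 probes, with 4 residual degrees of freedom, 5.24 prior degrees of freedom, a median standard error of 0.18 and Benjamini-Hochberg adjustment. Among the members the standard error ran from 0.364 to 0.735. The fit pools the spread of both groups, which the rule made unequal in the members. The number of arrays limits the precision. Whether plants shared pots is unknown, so calls measure only the spread between these plants. The code was tested on simulated data.

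The members and lists were chosen with earlier results of these data known. Genes named are the first 20 members, the first 3 of each pattern, neighbouring members and those at the thresholds, and the rest are named as stated. Descriptions came from the annotation rows of the paper's supplementary tables used here, for 1974 gene IDs. Of 40 keyword lists of gene families and cell types, 39 held 0 members and 1 (MYB factors) held 1, so no list was described. The lists could search only the 1755 described genes of the 66184 gene IDs on the array, and only 8 members were among them. At least 5 described genes were found for 30 of the lists. The counts therefore do not show which families the members lack. The reference table used here names no Glyma IDs, and no sequence was printed. Alternatives were other scalings, limits, rankings, gap ratios, tests and each plant left out in turn.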

Additional observations from a re-analysis of the deposited data

How the results depend on the processing

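No paired analysis was possible because the plant numbers differ between the groups. Of the recomputed counts, 198 stayed within 1.5 times the count reported and 38 did not. Of 405 recomputed differences between the group means of 45 named genes, 15 turned sign, in 10 genes of which limma called none, and 60 kept their sign but moved by over 1.5 times, 43 of them with a well-watered plant left out. Examples are Glyma08g27570 (-0.20 without plant 15, 0.64 with all plants), Glyma15g02260 (0.20 without plant 15, -0.42 with all) and Glyma06g02800 (0.013 without plant 16, -0.74 with all), and Glyma18g00830 had 0.84 without plant 16 and 1.91 with all. For the values below the cause was not tested. Membership was the least stable result: 118 members were shared with a drought limit of 0.2, and 67 to 142 with each plant left out in turn (67 without well-watered plant 16, 105 without plant 15 and 110 without drought-stressed plant 1). Plant 16 was high in 23 members on uncentred values and 25 after quantile normalization (34 to 39 with a drought-stressed plant left out). It was low in 61 on uncentred values, 61 without drought-stressed plant 1 (34 to 61 over these plants) and 22 at a gap ratio of 3. Plant 14 was high in 21 on uncentred values, 27 after quantile normalization, 5 at a drought limit of 0.4 and 7 ranked by range. It was high in 4 to 6 with a drought-stressed plant left out. It was low in 4 on uncentred values and 6 to 8 with a drought-stressed plant left out. It stood apart in 35 after quantile normalization, 12 at a limit of 0.4 and 12 to 14 with a drought-stressed plant left out. Plant 15 was high in 15 after quantile normalization and 16 at a limit of 0.2, low in 10 at a gap ratio of 3, and apart in 18 at that ratio. Plant 15 was highest and plant 16 lowest in 56 to 79 with a drought-stressed plant left out. Graded members were 36 at a gap ratio of 1.5 and 106 at 3. The middle part of the well-watered range held the drought mean of 22 to 42 members with a plant left out, the most without well-watered plant 15. The methods' t-test called 2 members lower and 4 higher, and of all probes 1633 lower and 1682 higher, against 3196 and 3019 by limma. With no minimum fold limma called 5388 and 5661. With a plant left out, 30 to 57 members were lower and 17 to 29 higher. With 3 arrays per group, an SD rests on 3 values.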
